A study of Mus musculus with 8 samples.

Results

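A set of 10 genes that place germinal centre (GC) B cells within the follicle or hold them there were followed: S1pr2, Gna13, Arhgef1, S1pr1, S1pr4, Cxcr4, Cxcr5, Ccr7, Gpr183 and Rgs13. They were chosen by symbol, and all 10 were present among the 23469 gene symbols of the deposited tables. Total RNA was sequenced from GC B cells of C57BL/6 mice 13 days after the animals were immunized with NP-KLH (the hapten NP coupled to the protein KLH). The cells were sorted as B220+ with high FAS and high GL7. Control mice (Ctrl, genotype CD19cre/+ Irf8+/+) and conditional knockout mice (Irf8 cKO, genotype CD19cre/+ Irf8flox/flox) gave 1 library each in experiment 1 and in experiment 2, so n = 2 per group. Both groups carry the same Cre allele, which is active in B cells from early in their development and not in GC B cells alone. The labels do not say whether a library holds 1 mouse or a pool, and p-values measure only the spread between these libraries, which may be technical. The 4 samples of B cells activated in culture with lipopolysaccharide were not analysed here.

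Confinement to the GC rests on S1PR2, a receptor for the lipid sphingosine 1-phosphate (S1P). It acts through the G protein subunit Gα13 (Gna13) and the RhoA exchange factor ARHGEF1 to restrain migration, while S1PR1 draws lymphocytes toward S1P in blood and lymph. CXCR5 leads B cells into follicles toward CXCL13, CXCR4 draws them to the dark zone of the GC toward CXCL12, CCR7 leads toward the T cell zone, and GPR183 (EBI2) follows oxysterols to the outer follicle. RGS13 shortens the signals of G protein-coupled receptors and is abundant in GC B cells.

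The windows before the start sites of S1pr2 and Gna13 are shown because they encode successive steps of the confinement route, the receptor and its G protein. Each line gives the 250 bases before the start site, 5′ to 3′ on the gene's strand, from RefSeq on GRCm38.p6. The start sites are those of the deposited tables. Capitals mark matches to GGAA, the core bound by ETS factors, and to GAAANNGAAA, an interferon-type element bound by IRF proteins, each on either strand.
S1pr2 (chr9:20976794-20977043, minus strand): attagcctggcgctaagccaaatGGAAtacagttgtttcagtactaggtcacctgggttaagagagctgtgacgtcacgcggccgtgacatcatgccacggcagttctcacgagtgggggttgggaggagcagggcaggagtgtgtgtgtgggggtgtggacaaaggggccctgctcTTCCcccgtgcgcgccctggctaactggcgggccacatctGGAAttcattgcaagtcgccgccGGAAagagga
Gna13 (chr11:109362544-109362793, plus strand): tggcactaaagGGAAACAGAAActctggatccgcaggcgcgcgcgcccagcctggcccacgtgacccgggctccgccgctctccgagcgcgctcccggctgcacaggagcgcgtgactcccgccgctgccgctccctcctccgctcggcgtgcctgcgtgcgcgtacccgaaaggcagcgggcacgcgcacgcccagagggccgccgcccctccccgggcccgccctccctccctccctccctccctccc
The table of promoter windows, which run from 250 bases before to 50 after a start, held 8 windows for 7 of the 10 genes, with S1pr1, Cxcr5 and Ccr7 missing. Across those 8 windows, GAAANNGAAA occurred once, in Gna13 at 238 bases before the start, where it shares 3 bases with the GGAA core beside it. It occurred in 3.44% of all 32851 windows. The ETS-IRF composite GGAANNGAAA and the reverse order GAAANNGGAA were in none of the 8 windows and in 2.72% and 2.80% of all windows. The PU.1 core GAGGAA was in none of the 8 and in 28.3% of all windows, and GGAA was in all 8 and in 96.0% of all windows. A match is a string of letters and not a measured binding site.

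The 4 libraries differed as a whole, and this bears on every ratio given here. Levels are in RPKM, reads per kilobase of transcript normalised to the mapped reads of each library. Estimated read totals were 63.2 M to 76.2 M. At least 1 RPKM was reached by 6433 to 6566 genes in the Ctrl libraries, by 6171 in Irf8 cKO 1 and by 4845 in Irf8 cKO 2. Irf8 cKO 2 stood apart, with the ribosomal RNA precursor Rn45s at 16716 RPKM against 5887 to 9085 in the other libraries, and a summed RPKM outside Rn45s of 23238 against 36104 to 47056. The part of this in the ratios was not tested. Across 6446 genes tested, the median log2 ratio of Irf8 cKO over Ctrl was -0.18 in experiment 1 and -0.51 in experiment 2, with -0.35 for both. Ratios are therefore given both as deposited and after median-of-ratios scaling, which brings that median to 0.0035. All 11 GC B cell markers were at 1 RPKM or more in every library, among them Cd79a, a B cell receptor subunit, and Mybl1, a GC transcription factor. Fas and Ptprc, which encodes B220, are on that list and were part of the sort. Irf8, the targeted gene, measured 20.6 RPKM in Irf8 cKO against 14.5 in Ctrl in experiment 1 and 11.6 against 14.9 in experiment 2 as deposited. After scaling it was higher in both libraries labelled Irf8 cKO, with 19.4 against 11.4 and 17.7 against 13.1 (log2 ratio 0.56 ± 0.18, SE; limma adjusted p = 0.4001), above 98.7% of genes tested. The authors' deposited tables give Irf8 log2 ratios of 0.717 and 0.366. A lower Irf8 value in the library labelled Irf8 cKO was thus seen only in experiment 2 as deposited. The tables give 1 value for the whole gene and the labels do not name the floxed exons, so the deletion could not be checked. Irf8 cKO and Ctrl therefore mean the libraries labelled so, and every direction rests on those labels.

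By level the 10 genes formed a group of 6 and a group of 4. Rgs13, Cxcr4, Gna13, Cxcr5, Arhgef1 and S1pr2 lay between 10.4 and 28.1 RPKM in Ctrl 1, 10.8 and 18.8 in Ctrl 2, 7.68 and 20.8 in Irf8 cKO 1, and 5.57 and 15.3 in Irf8 cKO 2. Gpr183, S1pr4, S1pr1 and Ccr7 reached at most 1.36 and 2.09 RPKM in libraries Ctrl 1 and 2, and 2.21 and 0.747 in Irf8 cKO 1 and 2. The receptors of confinement and of the follicle thus stood above those of exit, T zone and outer follicle in all 4 libraries. In Ctrl the means ran from Rgs13 (23.5 ± 6.54 RPKM, SD, n = 2) through Cxcr4 (15.8 ± 6.06), Gna13 (15.04 ± 4.55), Cxcr5 (13.2 ± 1.73), Arhgef1 (12.45 ± 2.84) and S1pr2 (11.3 ± 0.740). They went on to Gpr183 (1.73 ± 0.513), S1pr4 (1.06 ± 0.191), S1pr1 (0.760 ± 0.117) and Ccr7 (0.143 ± 0.0463). Neighbours from Cxcr4 to S1pr2 did not differ beyond their SD, and Cxcr4, Gna13, Cxcr5 and Arhgef1 changed places between Ctrl 1 and Ctrl 2. Rgs13 was the highest of the 10 in 3 of 4 libraries, and in Irf8 cKO 2 Arhgef1 stood above it. The plot of levels by library shows the gap between the groups.

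**Figure D1:**
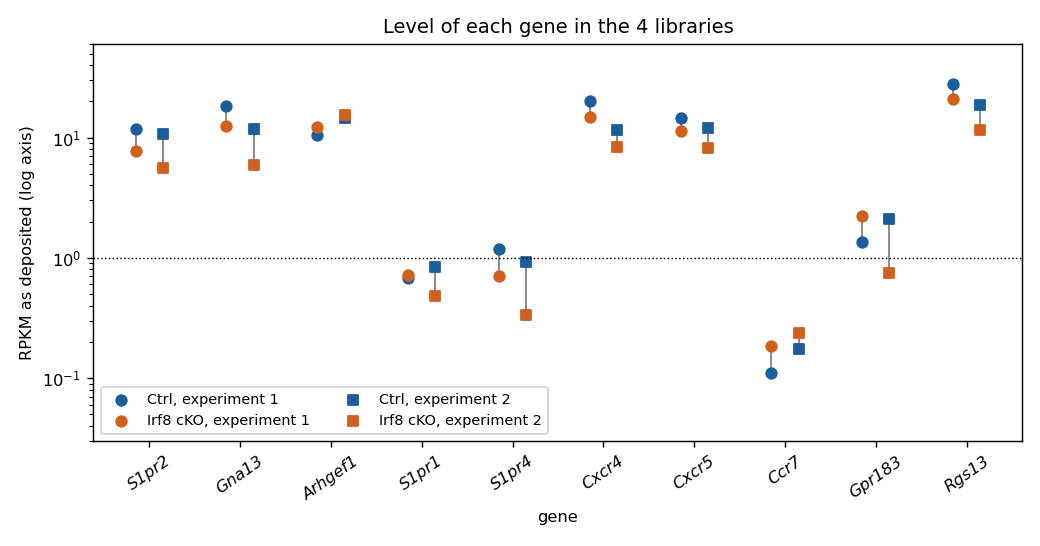
RPKM of each gene (log axis) in the 4 libraries; circles are experiment 1, squares experiment 2, blue Ctrl and orange Irf8 cKO, with a grey line joining the libraries of 1 experiment and a dotted line at 1 RPKM. Arhgef1 and Ccr7 are the 2 genes with the Irf8 cKO library above Ctrl in both experiments, and S1pr1 and Gpr183 differ in direction between experiments.

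The comparison of Irf8 cKO with Ctrl asks whether GC B cells of mice with floxed Irf8 carry other levels of these transcripts. In bulk samples fewer cells of a type and less RNA per cell cannot be told apart. None of the 7 genes tested passed in either direction (limma, Benjamini-Hochberg adjusted over all 6446 genes, threshold 0.05), as deposited or after scaling. Of all genes tested, 1.18% were called as deposited (1.09% lower and 0.0931% higher) and 0.0621% after scaling (0.0465% lower and 0.0155% higher), so a count of 0 among 7 is near the background. At an unadjusted limma p under 0.05 stood S1pr2 and Gna13 as deposited, where 18.8% of all genes did, and Arhgef1 after scaling, where 10.5% did. S1pr1, S1pr4 and Ccr7 lay under the filter of 1 RPKM in at least 2 libraries and were not tested. As deposited, 6 of the 10 genes were lower in Irf8 cKO in both experiments and 2 were higher in both. Ratios below 0 in both experiments were found for 71.2% of all genes tested, and ratios above 0 in both for 2.75%. After scaling those shares were 27.3% and 30.3%. Both Irf8 cKO libraries above both Ctrl libraries was seen for 1.19% of genes tested as deposited and 15.8% after scaling, and for none of the 7. Relative to the median fold of all genes in the same experiment, 3 of the 10 were lower in both (S1pr2, Gna13 and S1pr4) and 2 were higher in both (Arhgef1 and Ccr7). The authors' deposited tables give unadjusted p-values of 1 library against 1, and only Arhgef1 in experiment 2 (p = 0.0170) and Gpr183 in experiment 1 (p = 0.0407) are under 0.05 there among the 10.

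**Figure D2:**
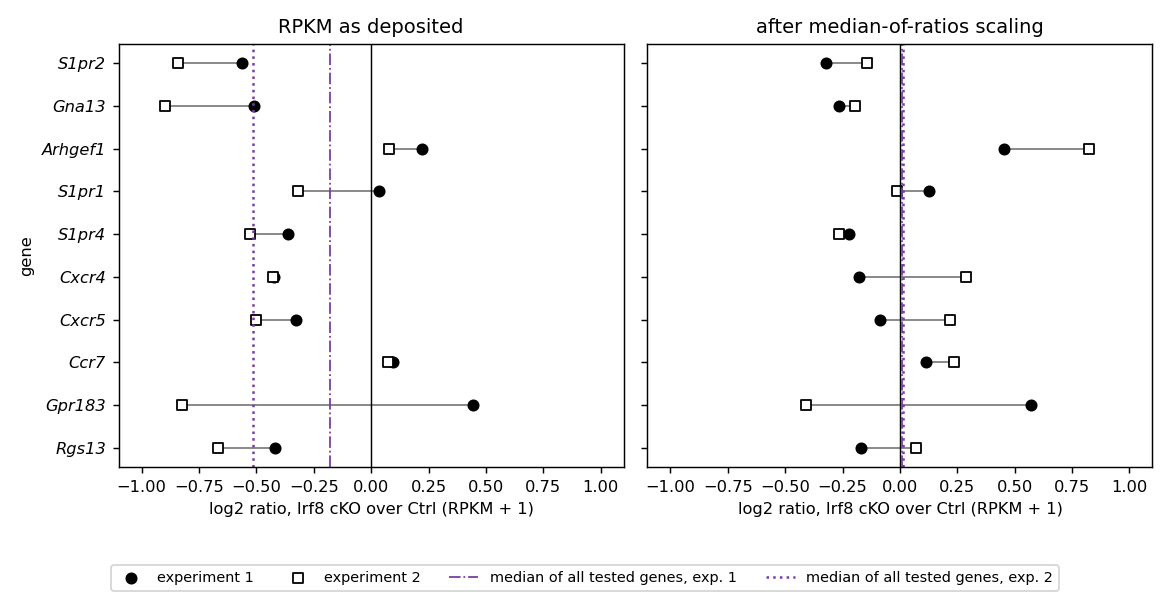
Log2 ratio of Irf8 cKO over Ctrl on the log2(RPKM + 1) scale for each gene in experiment 1 (filled circles) and experiment 2 (open squares), as deposited (left) and after scaling (right); purple lines are the medians of all genes tested. S1pr2 and Gna13 lie left of the medians in both experiments and Arhgef1 lies right of them.

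S1pr2, the confinement receptor (NM_010333, chromosome 9, 20965952 to 20976793, minus strand, mm10), measured 11.8 RPKM in Ctrl 1 and 10.8 in Ctrl 2, against 7.68 in Irf8 cKO 1 and 5.57 in Irf8 cKO 2. Both Irf8 cKO libraries were below both Ctrl libraries, as they were for 44.7% of all genes tested. The fold of Irf8 cKO over Ctrl was 0.651 in experiment 1 and 0.518 in experiment 2, where the median gene had 0.842 and 0.586. The log2 ratio was -0.70 ± 0.34 (SE; limma adjusted p = 0.249) as deposited and -0.23 ± 0.16 (adjusted p = 0.651) after scaling. After scaling the values were 9.25 and 9.47 in Ctrl 1 and 2, against 7.20 and 8.47 in Irf8 cKO 1 and 2, so the groups still did not overlap, as for 15.4% of all genes in that direction. Of all genes tested, 8.86% had a lower ratio as deposited and 14.6% after scaling. Leaving out 1 library, the ratio ran from -0.90 (without Irf8 cKO 1) to -0.50 (without Irf8 cKO 2) as deposited and from -0.34 to -0.13 after scaling.

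Gna13, which encodes the G protein subunit that S1PR2 couples to (NM_010303, chromosome 11, 109362794 to 109401369, plus strand), measured 18.3 and 11.8 RPKM in libraries Ctrl 1 and 2, against 12.5 and 5.89 in Irf8 cKO 1 and 2. The lower value was the Irf8 cKO library in each experiment, and the groups overlapped, with Ctrl 2 below Irf8 cKO 1. The log2 ratio was -0.70 ± 0.34 (SE; limma adjusted p = 0.253) as deposited, with -0.51 and -0.90 in experiments 1 and 2. After scaling it was -0.23 ± 0.16 (adjusted p = 0.661), with -0.26 and -0.20. Leaving out 1 library at a time, without the block, gave -1.19 without Irf8 cKO 1 (limma adjusted p = 0.0452, in a fit that called 1450 genes lower) and -0.22 without Irf8 cKO 2 (adjusted p = 0.9999) as deposited. After scaling the ratio ran from -0.44 without Ctrl 2 to -0.02 without Ctrl 1. In these fits the library left alone in its group is assumed to vary like the other group. The 5′ end of Gna13 overlaps Gm11696 on the opposite strand, which measured 0.771 to 1.18 RPKM, and the sources used here do not say whether counting used strand.

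Arhgef1, the exchange factor that passes the Gα13 signal to RhoA (chromosome 7, 24904346 to 24926591, plus strand), had the higher ratios. It measured 10.4 and 14.5 RPKM in libraries Ctrl 1 and 2, against 12.3 and 15.3 in Irf8 cKO 1 and 2. The Irf8 cKO library was the higher in each experiment, and the groups overlapped. The log2 ratio was 0.15 ± 0.35 (SE; limma adjusted p = 0.765) as deposited, with 0.22 and 0.08 in experiments 1 and 2. After scaling the values were 8.19 and 12.7 in Ctrl 1 and 2, against 11.6 and 23.3 in Irf8 cKO 1 and 2. The scaled log2 ratio was 0.64 ± 0.18 (adjusted p = 0.373), with 0.45 and 0.82, so it did not pass. Of all genes tested, 97.6% had a lower ratio than Arhgef1 as deposited and 99.1% after scaling. The authors' deposited tables, on their own scaling, give Arhgef1 a log2 ratio of 0.446 in experiment 1 and 0.794 in experiment 2. Without Ctrl 1 and without the block, the ratio as deposited was -0.07. The 5 RefSeq transcripts of Arhgef1 share 1 value in the tables.

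**Figure D3:**
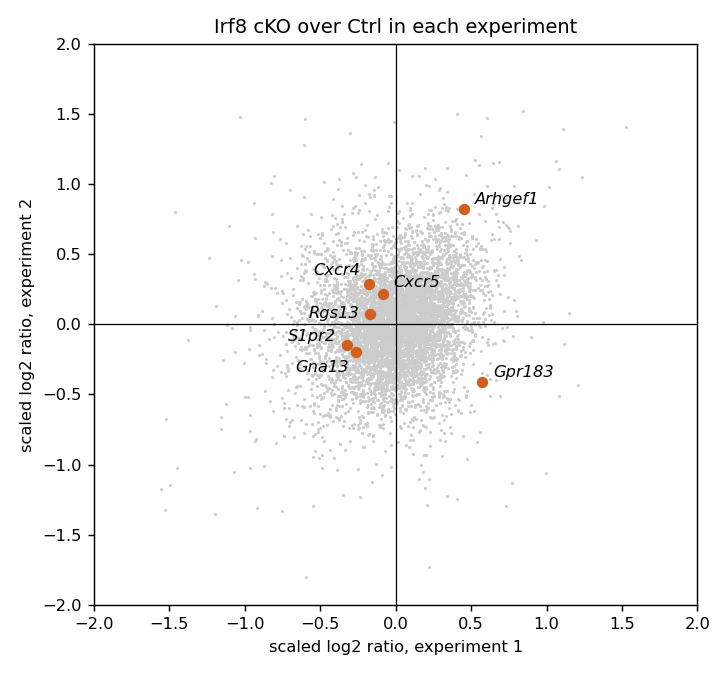
Scaled log2 ratio of Irf8 cKO over Ctrl in experiment 1 (x axis) and experiment 2 (y axis) for 6446 tested genes (grey, of which 12 lie outside the axes) and the 7 tested genes of the 10 (orange, named). Arhgef1 is in the upper right and S1pr2 and Gna13 in the lower left, while Gpr183 is positive in experiment 1 and negative in experiment 2.

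The other S1P receptors were scarce. S1pr1, the exit receptor (NM_007901, chromosome 3, 115710433 to 115715055, minus strand), measured 0.678 and 0.843 RPKM in libraries Ctrl 1 and 2, against 0.717 and 0.478 in Irf8 cKO 1 and 2. The groups overlapped, and the fold was 1.06 in experiment 1 and 0.568 in experiment 2. These values rest on an estimated 151, 162, 166 and 93 reads in Ctrl 1, Ctrl 2, Irf8 cKO 1 and Irf8 cKO 2. S1pr4, an S1P receptor of lymphoid and myeloid cells (NM_010102, chromosome 10, 81497745 to 81500137, minus strand), measured 1.19 and 0.922 RPKM in libraries Ctrl 1 and 2, against 0.705 and 0.332 in Irf8 cKO 1 and 2. Both Irf8 cKO values were below both Ctrl values, as for 44.7% of all genes tested. After scaling they were too, with 0.935 and 0.812 in Ctrl 1 and 2 against 0.661 and 0.505 in Irf8 cKO 1 and 2, as for 15.4%. The 95% Poisson intervals cover counting error only and were computed as deposited. They were 1.04 to 1.37 against 0.587 to 0.837 RPKM in experiment 1 and 0.774 to 1.09 against 0.249 to 0.440 in experiment 2. The fold was 0.591 and 0.360, below the median gene's 0.842 and 0.586 in each experiment. With no filter on low values S1pr4 was tested and did not pass (limma adjusted p = 0.442). S100a8 and Lyz2, transcripts of myeloid cells, which can also carry S1pr4, were lower in the Irf8 cKO library of each experiment too. Of the same marker list, Emr1 was higher in both experiments and Mpo in experiment 2 as deposited, both below 1 RPKM in every library. S100a8 measured 26.0 and 1.69 RPKM in Ctrl 1 and 2, where S1pr4 measured 1.19 and 0.922. The part of myeloid cells in the S1pr4 value was not tested.

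The chemokine receptors of the follicle had ratios near the median of all genes. Cxcr4, which draws cells to the dark zone (NM_009911, chromosome 1, 128588199 to 128592299, minus strand), measured 20.1 and 11.5 RPKM in libraries Ctrl 1 and 2, against 14.7 and 8.30 in Irf8 cKO 1 and 2. The Irf8 cKO library was the lower in each experiment, with folds of 0.733 and 0.720, and the groups overlapped. Its log2 ratio was -0.43 ± 0.35 (SE; limma adjusted p = 0.420) as deposited and 0.06 ± 0.19 (adjusted p = 0.936) after scaling, with -0.18 in experiment 1 and 0.29 in experiment 2. Cxcr5, the follicle receptor (NM_007551, chromosome 9, 44511787 to 44526421, minus strand), measured 14.4 and 11.97 RPKM in libraries Ctrl 1 and 2, against 11.3 and 8.17 in Irf8 cKO 1 and 2. As deposited both Irf8 cKO values of Cxcr5 were below both Ctrl values, as for 44.7% of all genes tested, and after scaling the groups overlapped. Its log2 ratio was -0.41 ± 0.34 (adjusted p = 0.426) as deposited and 0.07 ± 0.17 (adjusted p = 0.917) after scaling. Both ratios changed sign between the scalings.

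Ccr7, the receptor of the T cell zone (NM_007719, chromosome 11, 99144199 to 99155077, minus strand), measured 0.110 and 0.176 RPKM in libraries Ctrl 1 and 2, against 0.185 and 0.237 in Irf8 cKO 1 and 2. The estimated reads were 16 and 22 in Ctrl and 28 and 30 in Irf8 cKO. Both Irf8 cKO values were above both Ctrl values, as for 1.19% of all genes tested. The folds were 1.68 and 1.35, against a median gene below 1 in each experiment. As deposited, the counting intervals overlapped in experiment 1 (0.0630 to 0.179 RPKM in Ctrl and 0.123 to 0.268 in Irf8 cKO). They also overlapped in experiment 2 (0.110 to 0.266 and 0.160 to 0.339). Such overlap is not a test of the difference, and the values rest on few reads. After scaling Ccr7 measured 0.0863 and 0.1545 in Ctrl 1 and 2, against 0.174 and 0.360 in Irf8 cKO 1 and 2. Such a separation after scaling was seen for 15.8% of all genes tested. Counting intervals were not computed after scaling. With no filter Ccr7 was tested and did not pass (limma adjusted p = 0.623), nor did S1pr1 (adjusted p = 0.822).

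Gpr183, the oxysterol receptor (NM_183031, chromosome 14, 121952331 to 121965193, minus strand), measured 1.36 and 2.09 RPKM in libraries Ctrl 1 and 2, against 2.21 and 0.747 in Irf8 cKO 1 and 2. The 2 experiments had opposite signs, with folds of 1.62 and 0.357. The counting intervals did not overlap in experiment 1 (1.204 to 1.53 in Ctrl and 2.02 to 2.43 in Irf8 cKO). They did not in experiment 2 either (1.88 to 2.32 and 0.624 to 0.886). Computed as deposited from estimated reads, these intervals cover counting error only. The log2 ratio over both was -0.19 ± 0.25 (SE; limma adjusted p = 0.600) as deposited and 0.08 ± 0.23 (adjusted p = 0.926) after scaling. Its ratio stood above those of 98.5% of genes in experiment 1 and of 17.0% in experiment 2. Gpr183 lies within Ubac2, which is transcribed from the opposite strand and measured 2.52 and 2.57 RPKM in libraries Ctrl 1 and 2, against 2.08 and 1.59 in Irf8 cKO 1 and 2. Whether reads of Ubac2 enter the Gpr183 value was not tested.

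Rgs13, a regulator of G protein signalling (NM_153171, chromosome 1, 144138667 to 144177372, minus strand), measured 28.1 and 18.8 RPKM in libraries Ctrl 1 and 2, against 20.8 and 11.5 in Irf8 cKO 1 and 2. The groups overlapped, with Irf8 cKO the lower library in each experiment. The log2 ratio was -0.54 ± 0.35 (SE; limma adjusted p = 0.331) as deposited and -0.05 ± 0.18 (adjusted p = 0.944) after scaling, with -0.17 and 0.07 in experiments 1 and 2. The scaled ratio of Rgs13 was thus within its SE of 0. Its relative Rgs1, which dampens chemokine receptor signals in lymphocytes, measured 0.141 to 0.531 RPKM and was not tested.

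Ratios of 2 genes within 1 library do not depend on the scaling between libraries. Gna13 over Arhgef1 was 1.75 in Ctrl 1 and 1.01 in Irf8 cKO 1, and 0.817 in Ctrl 2 and 0.385 in Irf8 cKO 2. On the log2 scale the difference of Irf8 cKO from Ctrl was -0.78 in experiment 1 and -1.09 in experiment 2, while the 2 Ctrl libraries themselves lay at 0.80 and -0.29. The Irf8 cKO libraries lay at 0.02 and -1.38, so experiment 2 was the lower in both groups. S1pr2 over S1pr1 was 17.4 and 12.8 in Ctrl 1 and 2, against 10.7 and 11.6 in Irf8 cKO 1 and 2. Its log2 differences were -0.70 and -0.13. S1pr2 over Ccr7 was 107 and 61.3 in Ctrl 1 and 2, against 41.4 and 23.5 in Irf8 cKO 1 and 2, with log2 differences of -1.37 and -1.38 that rest on the few Ccr7 reads. S1pr2 over Gpr183 differed by -1.32 in experiment 1 and 0.53 in experiment 2. Cxcr4 over Cxcr5, a ratio of the dark zone receptor to the follicle receptor, was 1.39 and 0.962 in Ctrl 1 and 2, against 1.30 and 1.02 in Irf8 cKO 1 and 2. On the log2 scale it differed by -0.10 and 0.08, while the 2 Ctrl libraries lay at 0.48 and -0.06. Rgs13 over Rgs1 differed by 0.41 and -0.58. These ratios were not tested.

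**Figure D4:**
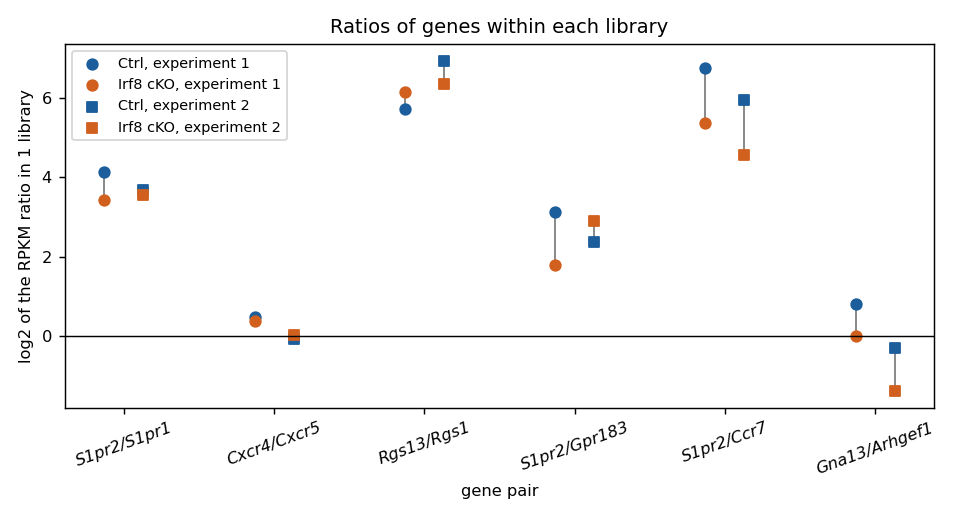
Log2 of the RPKM ratio of 2 genes in each library; circles are experiment 1, squares experiment 2, blue Ctrl and orange Irf8 cKO, joined within an experiment. Gna13/Arhgef1, S1pr2/S1pr1 and S1pr2/Ccr7 are lower in Irf8 cKO in both experiments, and Cxcr4/Cxcr5 differs by -0.10 and 0.08.

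The other genes of these routes were taken from a list of 66 genes in 9 roles, of which 41 were tested. None was called lower and none higher, as deposited or after scaling. The median log2 ratio of the 41 was -0.48 as deposited and -0.06 after scaling, beside -0.35 and 0.0035 over all genes tested. The log2(RPKM + 1) scale understates ratios of low genes, and the 41 were not matched to all genes in level. Among other lipid receptors, S1pr3 measured 2.16 RPKM in Ctrl and 1.49 in Irf8 cKO (means, n = 2 each) and Cnr2, a cannabinoid receptor of B cells, 2.13 and 1.24, while S1pr5 was listed at 0 in every library. In the RhoA branch, Rhoa, the small GTPase below ARHGEF1, measured 27.5 and 16.4 RPKM and its kinase effector Rock2 7.56 and 5.35. After scaling Rhoa had a log2 ratio of -0.22 (-0.44 in experiment 1 and -0.004 in experiment 2) and Rock2 of -0.04 (0.17 and -0.25). Of the Gi branch of chemotaxis all 16 genes were tested, led by the actin regulator Coro1a (54.8 and 38.1 RPKM) and the inhibitory G protein subunit Gnai2 (35.3 and 21.4). Their scaled log2 ratios were 0.03 and -0.25. Coro1a had -0.37 in experiment 1 and 0.43 in experiment 2, and Gnai2 -0.11 and -0.39. Rgs19 measured 10.1 and 5.601 RPKM and Rgs2 5.555 and 3.515, with scaled log2 ratios of -0.30 and -0.14.

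Of receptor desensitisation, the kinase genes Adrbk1 (Grk2) and Grk6 had scaled log2 ratios of -0.06 and 0.18. Cxcr3, the only other chemokine receptor tested, measured 1.17 and 0.353 RPKM in libraries Ctrl 1 and 2, against 1.37 and 0.262 in Irf8 cKO 1 and 2, so it differed more between experiments than between genotypes. Foxo1, a transcription factor of the dark zone, measured 13.2 RPKM in Ctrl and 9.09 in Irf8 cKO (means, n = 2 each), with a scaled log2 ratio of -0.07. After scaling, the lowest of the 41 ratios were those of 2 genes of S1P breakdown. Sgpp1, an S1P phosphatase, measured 5.32 and 3.49 RPKM in libraries Ctrl 1 and 2, against 2.88 and 1.04 in Irf8 cKO 1 and 2, with a log2 ratio of -0.92 ± 0.29 as deposited (SE; limma adjusted p = 0.0828) and -0.57 ± 0.15 after scaling (adjusted p = 0.338). Sgpl1, the S1P lyase, measured 2.37 and 1.90 against 1.402 and 0.506 RPKM, with -0.72 ± 0.25 (adjusted p = 0.125) and -0.45 ± 0.16 (limma adjusted p = 0.4001). Both Irf8 cKO values were below both Ctrl values for each gene under either scaling. The same held for 44.7% of all genes tested as deposited and 15.4% after scaling, and for 21 and 11 of the 41. Sphk2, an S1P-making kinase outside the naming rule and chosen after its values were seen, had ratios above 0 in both experiments, 0.12 as deposited (limma adjusted p = 0.718) and 0.41 after scaling (0.422). The oxysterol enzymes Ch25h and Cyp7b1 were listed at 0 in all 4 libraries. Of adhesion genes, the integrin chain Itgb2 and the hyaluronan receptor Cd44 had scaled log2 ratios of 0.15 and 0.14. Itgb2 had 0.24 in experiment 1 and 0.06 in experiment 2, and Cd44 -0.20 and 0.47.

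**Figure D5:**
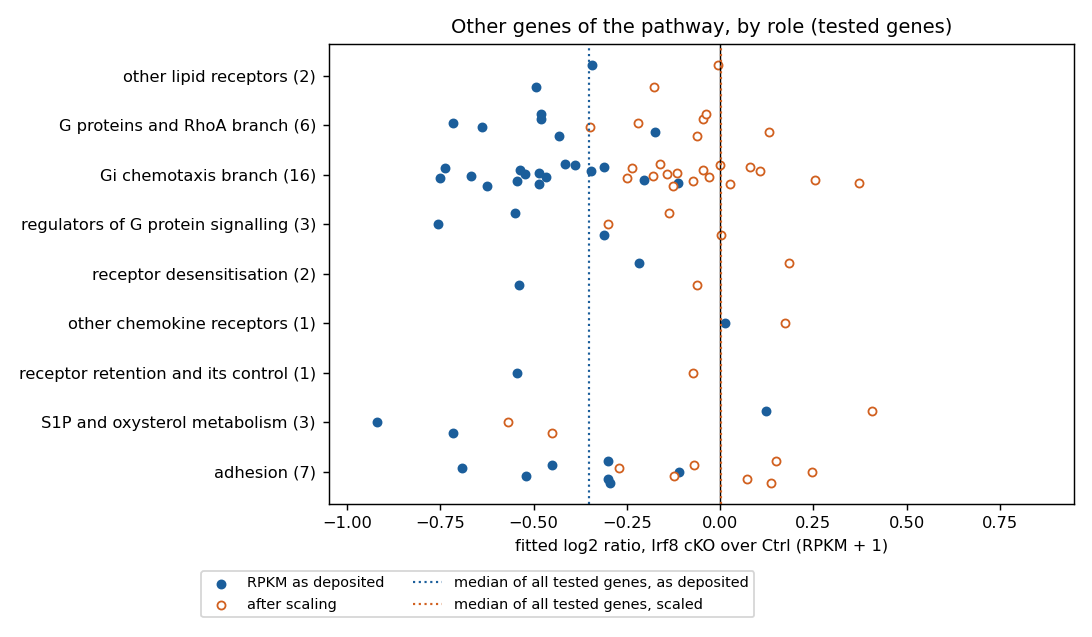
Fitted log2 ratio of Irf8 cKO over Ctrl on the log2(RPKM + 1) scale for the 41 tested genes of the wider list by role (number tested in brackets), as deposited (blue) and after scaling (open orange), with the medians of all genes tested as dotted lines. No gene passed the test, and the 2 lowest scaled values are Sgpp1 and Sgpl1 in S1P and oxysterol metabolism.

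Markers of other cells bear on the scarce receptors, since naive B cells, T cells and dendritic cells can carry S1pr1, Ccr7 or Gpr183. Of 9 T cell markers found, 7 were below 0.1 RPKM in every library, including Cd3d, Cd3e, Cd3g and Cd4, and their summed level of 3.91 to 5.25 RPKM came mostly from Lck, followed by Il7r. Of 7 dendritic cell markers 5 were below 0.1 RPKM in every library, with sums of 0.990 to 1.82 mostly from Flt3, while Siglech measured 0 to 0.164. Of 10 stromal markers 6 were, with Cxcl13, Ccl19 and Ccl21a listed at 0 and Pecam1 and Col1a2 the highest. Of 7 naive B cell markers, Klf2, the factor that drives S1pr1, measured 0.151 to 0.538 RPKM. The naive list summed to 125 and 102 RPKM in libraries Ctrl 1 and 2, against 76.0 and 42.3 in Irf8 cKO 1 and 2, with Ms4a1 the highest in every library. Its members differed in direction after scaling, where the log2 ratio was -0.72 for Ms4a1, -0.55 for Fcer2a, 0.48 for Cr2 and 0.40 for Cd55. Ms4a1 was called lower as deposited and not after scaling (limma). The 10 myeloid markers summed to 67.4 and 9.26 RPKM in libraries Ctrl 1 and 2, against 18.0 and 3.65 in Irf8 cKO 1 and 2, mostly from S100a8, S100a9 and Lyz2. S100a8 and S100a9 were called lower as deposited and none after scaling. The part of these cells in the values of the 10 genes was not tested.

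The zone lists are given beside Cxcr4. The 8 dark zone markers, led by Mki67, summed to 158 and 141 RPKM in libraries Ctrl 1 and 2, against 136 and 83.2 in Irf8 cKO 1 and 2. The 10 light zone markers, led by Cd83 and Cd86, summed to 51.0 and 54.9 in Ctrl 1 and 2, against 41.9 and 29.9 in Irf8 cKO 1 and 2. None of the 8 dark zone and 9 light zone genes tested was called, and their median log2 ratios after scaling were -0.09 and 0.03. The plasma cell list, led by Igj and Xbp1, and the memory list, led by Nt5e and Cd38, had 3 and 2 genes tested and none called. Of the 6 erythroid and platelet markers none was tested, and their sums, led by Hbb-b1 and Alas2, were 0.811 to 1.09 RPKM.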

How the data were processed

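For both experiments the authors deposited RPKM values of 1 Ctrl and 1 Irf8 cKO library by RefSeq gene, from the Wardrobe platform per the labels' design text. No source used here names its aligner or strand setting. The submitters' processing notes list TopHat2 2.0, Cufflinks 2.2, Cuffdiff, DESeq, mm9 and mm10 without roles. Coordinates match mm10. Per the labels' protocols, RNA was amplified with Ovation RNA-Seq System v2 before Nextera XT library preparation. Per the file headers, the authors' own log2 ratio and p-value (unadjusted, 1 library against 1) are in the same tables. That log2 ratio exceeds the log2 of the RPKM ratio by 0.205 in experiment 1 and 0.721 in experiment 2, to within 0.05, for 97.1% of 5889 and 96.2% of 4738 genes at 1 RPKM or more in both libraries.

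Entries sharing a symbol were summed. Read totals were estimated from the spacing of low values, using GENCODE transcript lengths. Between 69.3% and 71.8% of low values were whole within 0.1 reads, too few for a count model. Intervals on estimated reads are exact Poisson, 95%, and cover counting error only. Genes reaching 1 RPKM in 2 or more libraries were fitted on log2(RPKM + 1), which understates ratios of low genes, with the experiment as a block (limma 3.58.1, R 4.3.3, eBayes with trend, 2-sided). The code was tested on simulated data. Prior degrees of freedom were infinite as deposited, so SE and p came from genes of similar level, and 6.44 after scaling. The experiment numbers of the labels give the block, and deviations of same-numbered libraries correlated at 0.377. Figures used Python 3.11.15 and matplotlib 3.10.9. The 10 genes, lists and tests were chosen with earlier results of these data known. The naming rule took the 10 genes, Irf8, listed pathway genes past the threshold, and the 2 highest genes of each role (if tested) and marker list, of which 1 is not reported here. Rgs1 came from a fixed gene pair. S1pr5, Ch25h, Cyp7b1, Sphk2, Klf2, Fcer2a, Cd55, S100a9, Emr1, Mpo and markers at or near 0 were named after their values were seen. Alternatives were other scalings, pseudocounts and filters, no block, no variance trend, and each library left out.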

Additional observations from a re-analysis of the deposited data

How the results depend on the processing

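Of the 7 tested genes none passed under the alternatives except Gna13 without Irf8 cKO 1 (-1.19). S1pr1 and Ccr7 were tested in 1 alternative and S1pr4 in 2, and did not pass. All genes called lower and higher, 70 and 6 with the settings of the report, were 3 and 1 after median-of-ratios scaling, 42 and 45 with libraries set to the same summed RPKM outside Rn45s, 34 and 1 with a filter of 2 RPKM, and 0 and 0 with no filter, where limma had 1694 lower and 292 higher at an unadjusted p under 0.05. With no variance trend 277 genes and 1 listed pathway gene were called lower. Without the replicate block 19 were lower and 2 higher, and without it after scaling 4 and 2. The block changed no call among the 7 tested genes. Leaving out 1 library as deposited (no block) gave 0 (Ctrl 1) to 1450 (Irf8 cKO 1) genes lower, 0 to 9 higher, 0 to 1 of the 10 genes lower and 0 to 5 pathway genes lower, the highest counts of lower genes all without Irf8 cKO 1. With Ctrl 1 left out, where no gene passed, limma had 31 lower and 7 higher at an unadjusted p under 0.05. After scaling, leaving out 1 library gave 1 to 10 lower (7 without Ctrl 1) and 1 to 6 higher. Signs turned with median-of-ratios scaling, with or without the block, for Cxcr4 (0.0556), Cxcr5 (0.0657), Gpr183 (0.0807) and the untested S1pr1 (0.0574), and with the summed RPKM for the same 4 genes (0.0790, 0.0877, 0.0925 and 0.0639). Leaving out 1 library, log2 ratios as deposited ran from -0.0679 to 0.366 for Arhgef1 and from -0.629 to 0.250 for Gpr183. After scaling they ran from -0.238 to 0.349 for Cxcr4 (0.115 without Irf8 cKO 2), -0.0406 to 0.172 for Cxcr5 (0.112 and 0.0199 without Ctrl 1 and Ctrl 2), -0.182 to 0.344 for Gpr183 (0.309 without Ctrl 2) and -0.242 to 0.146 for Rgs13 (0.0258 without Irf8 cKO 2). The cause was not tested. Estimated reads per library were 16 to 30 for Ccr7, 93 to 166 for S1pr1 and 51 to 209 for S1pr4. The 2 libraries per group limit every comparison.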
